A study of Mus musculus with 8 samples.

Results

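The Foxo factors and the genes that restrain or carry phosphoinositide 3-kinase (PI3K) signalling were followed through early B lymphopoiesis in mouse bone marrow. The set holds 9 named genes among the 27179 gene identifiers of the count table, each found through its Entrez Gene identifier. Foxo1, Foxo3, Foxo4 and Foxp1 encode forkhead transcription factors, and Klf2 encodes a Krüppel-like transcription factor. Inpp5d and Pik3ip1 encode antagonists of PI3K, and Akt1 and Akt2 encode the kinases that carry its signal. RNA was sequenced from sorted pre-proB, proB and preB cells of Rag1Cre +/+;Erg fl/fl mice, called Erg fl/fl here, and, at the pre-proB stage only, of Rag1Cre T/+;Erg Δ/Δ mice, called Erg-deficient, with 2 replicate libraries in each of the 4 groups. The study's methods give 2 mice of each genotype, 7 to 10 weeks old, and populations sorted independently. Every library held both Xist RNA and RNA of the Y-linked gene Ddx3y, and whether libraries pool mice of both sexes is not stated. In the Erg-deficient mice the Cre recombinase, made under control of Rag1, deletes the floxed Erg alleles from the common lymphoid progenitor onwards. The floxed controls carry no Cre, so Cre separates the genotypes along with Erg, an ETS family transcription factor. The libraries were compared in 4 ways: Erg-deficient with Erg fl/fl pre-proB cells, and each pair of Erg fl/fl stages. The 3 stage comparisons share libraries with each other, and the genotype comparison shares the Erg fl/fl pre-proB libraries with both comparisons that involve that stage.

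PI3K makes the membrane lipid PIP3 downstream of cytokine receptors and the pre-B-cell receptor. PIP3 recruits Akt kinases, which phosphorylate Foxo proteins and so send them out of the nucleus, and SHIP-1, the product of Inpp5d, removes a phosphate from PIP3. In early B cells Foxo1 is known to act on Rag1, Rag2 and Il7r, and Klf2 is a known Foxo1 target in lymphocytes that promotes S1pr1. Phosphorylation and location of these proteins are not measured by an RNA level.

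Library totals ran from 15565381 to 18457632 counts, and levels are given as CPM, counts scaled to library sizes that carry TMM factors of 0.952 to 1.05. A count of 3 corresponds to 0.154 to 0.194 CPM, and every member lay far above it in every library. Erg RNA itself stood at 69.1 and 25.4 CPM in pre-proB controls and at 2.50 and 2.58 CPM in Erg-deficient libraries.

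In the libraries labelled pre-proB, plasmacytoid dendritic cell markers summed to more CPM than B lineage markers. These sums are not scaled to gene length. The 6 plasmacytoid dendritic markers (Siglech, Ccr9, Bst2, Tcf4, Irf8, Klk1) summed to 11522 and 12465 CPM in the controls at this stage, 490 and 523 CPM at proB, 402 and 414 CPM at preB, and 13388 and 13908 CPM in the Erg-deficient libraries. The 9 B lineage markers, among them Ebf1, Pax5 and Cd79a, summed to 1646 and 841 CPM in the same controls, 4670 and 4376 CPM at proB, 6526 and 7038 CPM at preB, and 401 and 399 CPM without Erg. Blnk, not called between the genotypes, held 323 and 316 CPM of the Erg-deficient sums, and Ebf1 0.438 and 0.517 CPM. Between preB and proB, 2 of the 9 were called higher, 2 lower (Vpreb1 and Igll1) and 5 not called. All 6 plasmacytoid dendritic markers were called lower in proB than in pre-proB cells and none was at 0 in any library. Klk1 reached 304 and 345 CPM in Erg fl/fl pre-proB against 4.81 and 6.28 at proB. Tcf4 and Irf8 made up most of the plasmacytoid dendritic sums at proB and preB. Tcf4 measured 190 and 185 CPM at proB and 166 and 160 at preB, and Irf8 196 and 210, and 202 and 213. The control pre-proB libraries also stood apart from each other, with Pax5 at 26.8 and 7.78 CPM. The 6 NK markers summed to 29.6 and 33.7 CPM in these controls and to 91.8 and 164 CPM in the Erg-deficient libraries. In bulk RNA of this kind fewer cells of a type and less RNA per cell cannot be told apart.

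**Figure D1:**
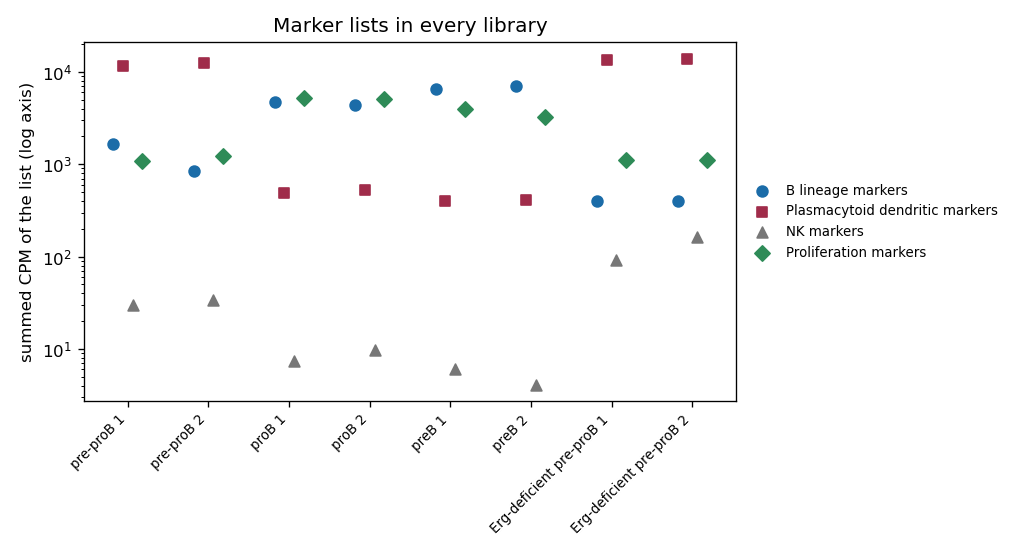
Summed CPM (log axis) of 4 marker lists in each of the 8 libraries; names without a genotype are Erg fl/fl. Plasmacytoid dendritic markers lie above B lineage markers in the 4 pre-proB libraries and below them in the 4 proB and preB libraries.

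Promoter sequence was looked at for members that moved together and for motif letters of the factors at issue. RefSeq starts on GRCm38.p6 were given for 8 of the 9 genes, in 14 windows of 250 bases upstream of a start, and Foxo4 was not among them. The letters searched on both strands were GTAAACA (a forkhead consensus), GGAAGT (an ETS core) and GGGCGG (a GC box, the kind of site that Sp and Krüppel-like factors bind). They occur in 3.17%, 19.7% and 32.7% of the 32851 mouse promoter windows of that length, and in 1, 2 and 7 of the 14 member windows. No match of 1 motif overlapped a match of another motif in a member window. The 5 windows shown are a selection. Foxo1 and Akt1 rose at both stage steps, and Klf2 and Pik3ip1 fell and then rose, as Foxo3 and Foxo4 did. Inpp5d carries the ETS letters nearest to a start. For Akt1 the window with the forkhead match is shown. Foxp1 also rose at both steps and is not shown, and its windows held 1, 0 and 3 GC boxes. Each is printed 5′ to 3′ on the gene's strand and ends 1 base before the start, with motif matches in capitals.
Foxo1, chr3:52268087-52268336, plus strand, 2 GC boxes: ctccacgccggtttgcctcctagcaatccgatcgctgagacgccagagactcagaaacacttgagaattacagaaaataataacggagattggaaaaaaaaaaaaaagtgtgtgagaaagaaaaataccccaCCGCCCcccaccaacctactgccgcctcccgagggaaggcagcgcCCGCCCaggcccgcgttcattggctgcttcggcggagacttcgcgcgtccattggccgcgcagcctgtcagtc
Akt1, chr12:112674885-112675134, minus strand, 1 forkhead consensus: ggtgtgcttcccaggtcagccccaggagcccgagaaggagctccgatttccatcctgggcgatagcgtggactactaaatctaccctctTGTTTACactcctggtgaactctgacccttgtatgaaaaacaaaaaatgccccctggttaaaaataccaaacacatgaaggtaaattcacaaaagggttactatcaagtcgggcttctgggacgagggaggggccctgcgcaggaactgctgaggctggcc
Klf2, chr8:72318812-72319061, plus strand, 2 GC boxes: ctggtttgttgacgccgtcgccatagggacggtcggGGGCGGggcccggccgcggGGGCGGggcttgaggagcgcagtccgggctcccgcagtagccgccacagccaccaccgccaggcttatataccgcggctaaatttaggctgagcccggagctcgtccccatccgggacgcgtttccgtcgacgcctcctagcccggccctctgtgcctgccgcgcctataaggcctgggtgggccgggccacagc
Pik3ip1, chr11:3330481-3330730, plus strand, no match: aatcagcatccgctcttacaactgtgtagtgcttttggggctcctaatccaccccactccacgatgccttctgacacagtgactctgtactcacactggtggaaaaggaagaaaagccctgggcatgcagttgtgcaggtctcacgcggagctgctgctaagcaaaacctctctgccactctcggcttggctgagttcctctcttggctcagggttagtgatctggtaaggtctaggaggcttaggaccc
Inpp5d, chr1:87620062-87620311, plus strand, 1 ETS core: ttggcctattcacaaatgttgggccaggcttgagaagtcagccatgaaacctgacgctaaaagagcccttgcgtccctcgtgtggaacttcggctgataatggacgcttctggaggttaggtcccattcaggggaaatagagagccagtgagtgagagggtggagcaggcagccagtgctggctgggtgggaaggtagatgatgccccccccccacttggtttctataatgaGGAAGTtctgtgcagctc

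The RefSeq start used for Pik3ip1, chr11:3330731, lies inside the longer gene model given for it in the annotation. The ETS letters of Inpp5d lie at bases -18 to -13 from its start, and those of Akt2, in the window chr7:27591302-27591551, at -178 to -173. The forkhead letters of Akt1 lie at -161 to -155, in the more distal of its 2 windows, while the other holds 4 GC boxes. Of these, the boxes at -17 to -12 and -13 to -8 overlap each other. Foxo3 had 5 GC boxes in its window, the most of any member. A match is a description of letters only. Of the 4 members that fell and then rose, Klf2 and Foxo3 held GC boxes, the window of Pik3ip1 held none of the 3 motifs, and Foxo4 had no window. GC boxes also lay in windows of Foxo1, Foxp1, Akt1 and Akt2, so they were not particular to these members.

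Foxo1 RNA, which encodes the main Foxo factor of early B cells (Entrez 56458, chr3:52268337-52350109, plus strand), rose at each stage. It measured 132 and 104 CPM at the pre-proB stage, 227 and 208 at proB and 375 and 404 at preB. The ranges of the 3 stages did not overlap. The proB level was 1.88-fold that of pre-proB (log2 fold change 0.91 ± 0.108 (SE), adjusted p = 7.18e-05) and the preB level was higher again (0.85 ± 0.106, adjusted p = 0.000221), by the quasi-likelihood test of edgeR, adjusted by Benjamini-Hochberg over all genes, as for every stage value that follows. From pre-proB to preB Foxo1 rose 3.40-fold (log2 1.76 ± 0.110, adjusted p = 1.34e-06). An annotated gene on the opposite strand, Gm20402, overlaps Foxo1 exons, and whether the counting used strand is not given in the sources used here.

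Foxo3 (Entrez 56484, chr10:42181845-42276695, minus strand), a paralogue of Foxo1, moved the other way at the earlier step. Its level was 34.0 and 37.4 CPM at the pre-proB stage, 18.6 and 18.2 at proB and 26.0 and 26.2 at preB. The pre-proB libraries were the highest and the proB libraries the lowest, with no overlap. It fell to 0.527 of the pre-proB level in proB cells (log2 -0.93 ± 0.0859, adjusted p = 1.51e-05) and rose 1.43-fold from proB to preB (0.51 ± 0.0870, adjusted p = 0.00117). The preB level remained below that of pre-proB (log2 -0.41, adjusted p = 0.00210).

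Foxo4 (Entrez 54601, chrX:101254261-101260873, plus strand) measured 54.5 and 55.3 CPM at the pre-proB stage, 46.2 and 46.7 at proB and 78.5 and 74.4 at preB. It was lowest in proB and highest in preB, without overlap. The fall to proB was small (log2 -0.21 ± 0.0620, adjusted p = 0.0145) and was not called without proB replicate 1 (adjusted p = 0.0929). The rise from proB to preB was 1.66-fold (log2 0.73 ± 0.0608, adjusted p = 2.73e-05). Foxo4 is X-linked, and all 8 libraries held both Xist RNA, at 450 to 1114 CPM, and RNA of the Y-linked gene Ddx3y, at 84.6 to 135 CPM.

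**Figure D2:**
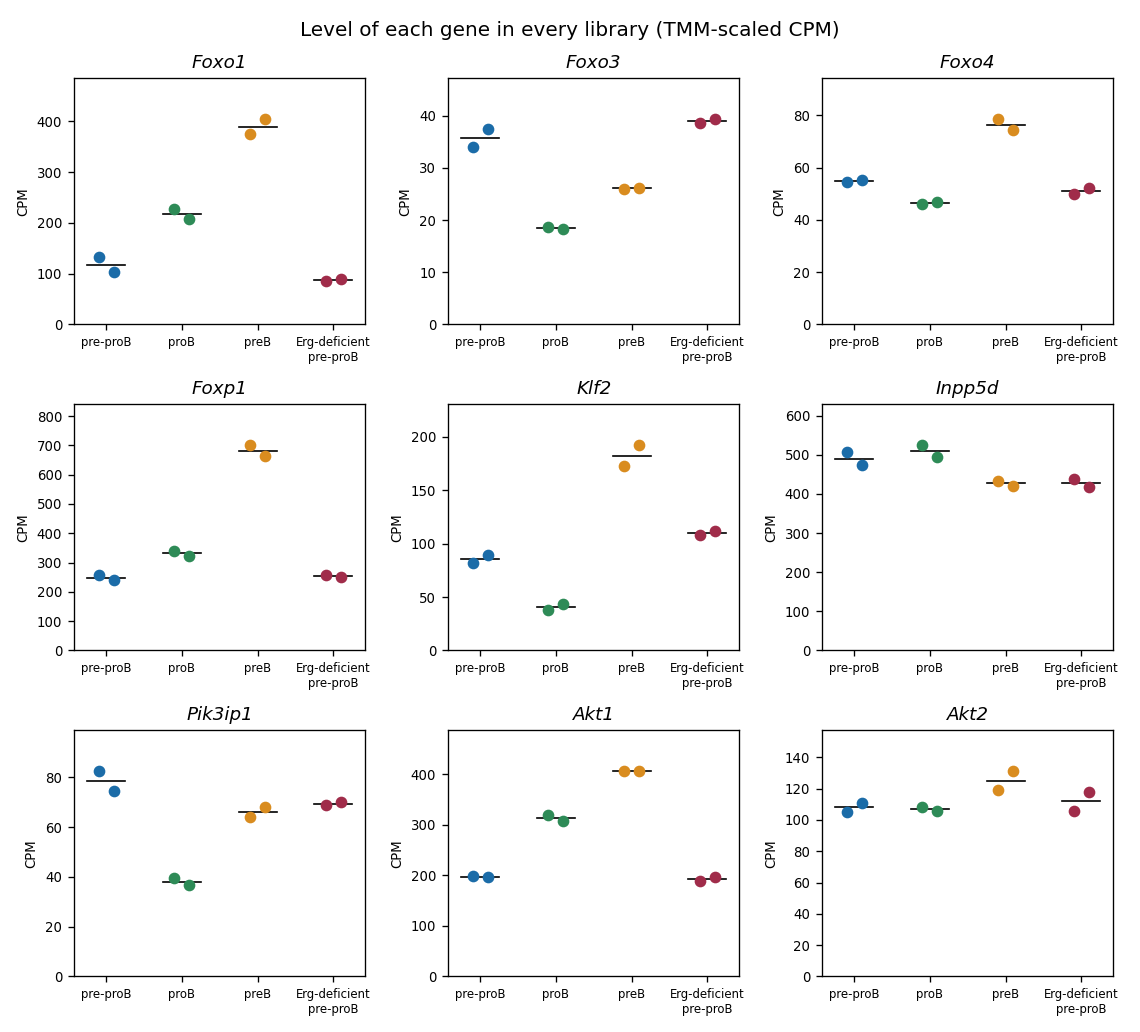
TMM-scaled CPM of the 9 genes (linear axes from 0) in each library; points are libraries and bars are means of 2. Foxo1, Foxp1 and Akt1 climb from pre-proB to preB, while Foxo3, Klf2 and Pik3ip1 are lowest in proB.

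Foxp1 (Entrez 108655, chr6:98925342-99522746, minus strand) encodes a forkhead protein needed for early B-cell development. It measured 258 and 239 CPM at the pre-proB stage, 341 and 324 at proB and 700 and 664 at preB. The stages followed each other upward with no overlap. The earlier step was 1.37-fold (log2 0.46 ± 0.0706, adjusted p = 0.000390) and the later one 2.06-fold (1.04 ± 0.0705, adjusted p = 1.05e-05). Exons of the same-strand gene models Gm20696 and Gm49348 overlap those of Foxp1, so its count may include or lack reads shared with them.

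Klf2 (Entrez 16598, chr8:72319062-72321654, plus strand), a factor linked to quiescence and trafficking of lymphocytes, had the largest step of the 9 genes. It measured 81.5 and 89.8 CPM at the pre-proB stage, 38.2 and 43.9 at proB and 173 and 192 at preB. The proB libraries were the lowest and the preB libraries the highest. Klf2 fell to 0.491 of its pre-proB level (log2 -1.03 ± 0.0955, adjusted p = 1.54e-05) and then rose 4.46-fold from proB to preB (2.16 ± 0.0945, adjusted p = 2.81e-06). By p-value this rise ranked 37 among the 13650 genes tested. The net rise from pre-proB to preB was 2.19-fold (log2 1.13, adjusted p = 6.30e-06).

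Pik3ip1 (Entrez 216505, chr11:3319241-3342971, plus strand) encodes a transmembrane protein that binds the catalytic subunit of PI3K and inhibits it. Its level was 82.4 and 74.4 CPM at the pre-proB stage, 39.4 and 36.8 at proB and 64.0 and 68.1 at preB. As for Foxo3, pre-proB was highest and proB lowest. The level fell to 0.498 of that in pre-proB (log2 -1.01 ± 0.0754, adjusted p = 3.94e-06) and rose 1.74-fold at the next step (0.80 ± 0.0756, adjusted p = 5.01e-05). The remaining difference of preB from pre-proB (log2 -0.20, adjusted p = 0.0331) was lost without pre-proB replicate 1 (adjusted p = 0.0642), proB replicate 1 (adjusted p = 0.0530) or preB replicate 1 (adjusted p = 0.180). Gm12592, on the opposite strand, overlaps Pik3ip1 exons.

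Inpp5d (Entrez 16331, chr1:87620312-87720510, plus strand), the gene of the lipid phosphatase SHIP-1, moved less than Pik3ip1. It measured 508 and 473 CPM at the pre-proB stage, 524 and 495 at proB and 434 and 421 at preB. Pre-proB and proB overlapped, and preB lay below both. The earlier step was a log2 difference of 0.09 with a 95% interval of -0.07 to 0.25 (adjusted p = 0.276). From proB to preB it fell by 0.24 on the log2 scale (SE 0.0694, adjusted p = 0.0151), a call lost without proB replicate 1 (adjusted p = 0.112). The difference of preB from pre-proB, -0.16, missed the threshold (adjusted p = 0.0721) but passed it in 7 of 17 alternatives, among them with the replicate number as a block (adjusted p = 0.0376) and without pre-proB replicate 2 (log2 -0.24, adjusted p = 0.0208).

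Akt1 (Entrez 11651, chr12:112653821-112674884, minus strand), the gene of the kinase that phosphorylates Foxo factors downstream of PI3K, rose at both steps. It measured 199 and 196 CPM at the pre-proB stage, 320 and 307 at proB and 406 and 406 at preB, so the stages were fully apart. The steps were 1.62-fold (log2 0.70 ± 0.0616, adjusted p = 1.10e-05) and 1.30-fold (0.38 ± 0.0609, adjusted p = 0.000839).

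Akt2 (Entrez 11652, chr7:27591552-27640826, plus strand) encodes the Akt kinase best known for insulin responses, and its stage means differed by at most 0.25 on the log2 scale. It measured 105 and 111 CPM at the pre-proB stage, 108 and 106 at proB and 119 and 131 at preB, with pre-proB and proB overlapping and preB above them. The log2 difference of proB from pre-proB was 0.02 (95% interval -0.14 to 0.17, adjusted p = 0.850), and its sign changed with the scaling. The preB level was 1.18-fold that of proB (log2 0.24, adjusted p = 0.0148), a call lost without proB replicate 1 (adjusted p = 0.0701), proB replicate 2 (0.0989) or preB replicate 2 (0.113). Against pre-proB it was 1.19-fold (log2 0.25, adjusted p = 0.00883), which was lost without pre-proB replicate 1 (adjusted p = 0.139).

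In counts, 7 of the 9 genes were called between proB and pre-proB, 3 higher and 4 lower, where 73.0% of all 13650 genes tested were called. Between preB and proB, 9 of 9 were called, 8 of them higher, where 58.9% of genes were called and 29.0% were higher. Between preB and pre-proB 8 were called, 6 higher and 2 lower, against 70.7% of genes, 36.5% higher and 34.1% lower. The median log2 fold change of the 9 genes was 0.02, 0.73 and 0.52 in these comparisons, beside medians over all genes of 0.00, -0.00 and 0.04. In both comparisons with pre-proB the plasmacytoid dendritic markers fell (all 6 called lower) and the 6 proliferation markers rose (all 6 called higher), the latter from 1086 and 1224 CPM in pre-proB to 5266 and 5070 at proB and 3945 and 3217 at preB. Between preB and proB 5 of the 6 plasmacytoid dendritic markers were called lower (Siglech by log2 -2.17, Klk1 by -1.95), although their sums were 402 and 414 against 490 and 523 CPM, and all 6 proliferation markers were called lower. In the same comparison all 6 mature B markers, among them Ms4a1 and Fcer2a, were called higher, from 421 and 418 CPM at proB to 895 and 955 CPM at preB, and 5 of 6 myeloid and 5 of 7 T markers were called lower. The part of these lists in the members' differences was not tested.

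**Figure D3:**
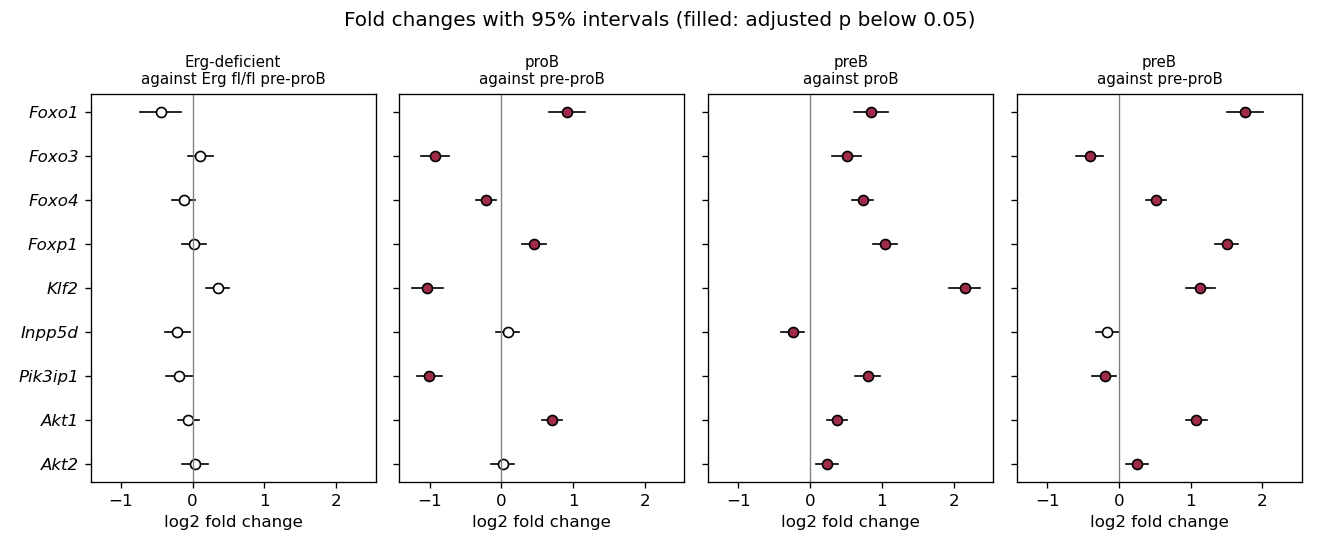
Log2 fold changes of the 9 genes with 95% intervals in the 4 comparisons; filled points have an adjusted p below 0.05. All 9 points are open in the genotype comparison, and 8 of 9 lie to the right of 0 between preB and proB, with Klf2 at 2.16.

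No member was called between Erg-deficient and Erg fl/fl pre-proB cells (0 of 9 by edgeR, where 1.16% of 13005 genes were called). At an unadjusted p below 0.05, 4 of the 9 passed (Foxo1, Klf2, Inpp5d and Pik3ip1), where 12.5% of genes did. DESeq2 called 2 of the 9, Foxo1 and Klf2, where it called 3.08% of genes.

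Foxo1 was lower in both Erg-deficient libraries, at 85.8 and 89.4 CPM against 132 and 104 CPM in the controls. The Erg-deficient mean was 74.1% of the control mean. The log2 fold change was -0.44 ± 0.120 with a 95% interval of -0.73 to -0.16 (adjusted p = 0.175 by edgeR). DESeq2 gave -0.45 with an adjusted p of 0.0426. The call depended on the controls, which differed 1.27-fold from each other in Foxo1, 2.77-fold in Ebf1 and 2.73-fold in Erg, replicate 1 being higher in each. Without control replicate 2 the log2 fold change was -0.63 (adjusted p = 0.00508), and without control replicate 1 it was -0.25 (adjusted p = 0.676). B lineage marker RNA moved the same way, from 1646 and 841 CPM to 401 and 399 CPM, with 7 of the 9 markers called lower and Pax5 at 0.438 and 0.0646 CPM. Its part in the Foxo1 difference was not tested.

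Klf2 went the opposite way, at 108 and 112 CPM in Erg-deficient libraries against 81.5 and 89.8 CPM in the controls. The log2 fold change was 0.35 ± 0.0670 with a 95% interval of 0.19 to 0.51 (adjusted p = 0.0763 by edgeR), and DESeq2 gave 0.34 with an adjusted p of 0.0277. NK marker RNA was also higher in the Erg-deficient libraries, with 3 of 6 markers called, and its part was not tested.

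Inpp5d measured 438 and 418 CPM in Erg-deficient libraries and 508 and 473 in the controls. Pik3ip1 measured 68.8 and 70.1 CPM against 82.4 and 74.4 CPM. Neither passed the adjusted test (Inpp5d log2 -0.21, adjusted p = 0.315, Pik3ip1 log2 -0.19, adjusted p = 0.398, by edgeR). Foxo3 measured 38.6 and 39.3 CPM against 34.0 and 37.4, and Foxo4 49.8 and 52.2 CPM against 54.5 and 55.3.

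Foxp1 measured 259 and 250 CPM in Erg-deficient libraries against 258 and 239 in the controls, Akt1 188 and 196 CPM against 199 and 196, and Akt2 106 and 118 CPM against 105 and 111. For these 3 genes the 95% intervals of the log2 fold change ran from -0.15 to 0.19, from -0.20 to 0.09 and from -0.14 to 0.22. The log2 fold changes of Foxo3 and Foxo4 were 0.11 (-0.06 to 0.29) and -0.12 (-0.28 to 0.04). Both stage steps of Foxo3, Foxp1 and Akt1 lie outside these intervals. For Foxo4 and Akt2 the earlier steps (-0.21 and 0.02) lie inside them and the later steps (0.73 and 0.24) outside, as point estimates. The later step of Akt2 has a 95% interval of 0.08 to 0.39, which overlaps that of its genotype difference. The median log2 fold change of the 9 genes was -0.06, beside 0.01 over all genes tested.

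Levels of different genes can be set side by side only per length, here as CPM per kilobase of RefSeq-matched exon (FPKM). Foxo1 made up 34.5% and 28.3% of the summed FPKM of Foxo1, Foxo3 and Foxo4 in pre-proB controls, 55.5% and 53.2% at proB, 56.1% and 58.9% at preB, and 25.4% and 25.5% in Erg-deficient pre-proB. The Foxo1 share was thus higher in every proB and preB library than in every pre-proB library. With all annotated exons its mean shares were 39.9% in pre-proB controls, 61.4% at proB, 63.9% at preB and 33.8% in Erg-deficient pre-proB. The size of the Foxo1 share thus depends on the exon length, while that order of the libraries was kept. Foxo4 held the largest mean share in Erg fl/fl pre-proB (40.1% ± 1.61, SD, n = 2). The Foxo3 share there was 28.5% with a matched exon length of 2889 bases and 13.9% with all annotated exons (7571 bases). It was the smallest mean share with both lengths, so its size but not its place there depends on the gene model. In Erg-deficient cells the Foxo3 share was above that of Foxo1 with matched exons (33.9% against 25.4%). With all annotated exons it was below (17.2% against 33.8%).

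Of the 2 Akt genes in the set, Akt1 carried the larger part of the RNA at every stage. Its share of their summed FPKM was 75.9% ± 0.925 (SD, n = 2) in Erg fl/fl pre-proB, 83.5% ± 0.260 at proB, 84.8% ± 0.835 in preB and 74.7% ± 0.901 in the Erg-deficient libraries. Per length, Klf2 ranged from 22.2 FPKM in proB to 98.8 FPKM in preB cells on average, and Inpp5d from 86.6 FPKM in preB to 103 FPKM in proB. Pik3ip1 had 14.8 FPKM in proB cells.

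**Figure D4:**
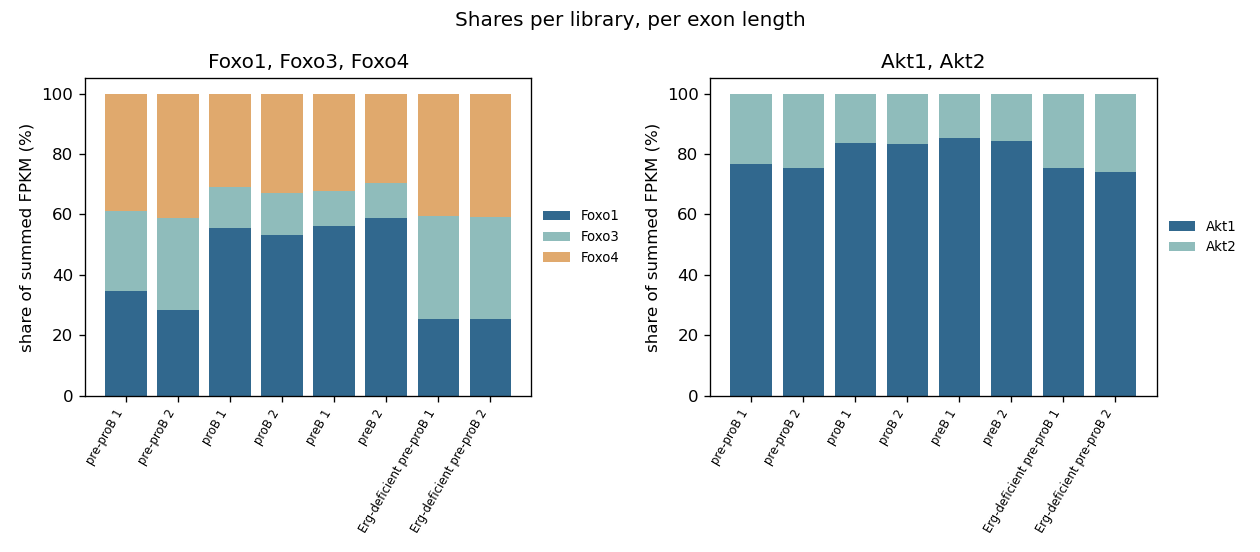
Share (%) of each gene in the summed FPKM of Foxo1, Foxo3 and Foxo4 (left) and of Akt1 and Akt2 (right) in the 8 libraries; names without a genotype are Erg fl/fl. The Foxo1 share is above 50% in the 4 proB and preB libraries only, and the Akt1 share lies between 74.0% and 85.4% in the 8.

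Genes of PI3K enzymes, not all of which make PIP3, and of their adaptors moved in both directions. Of 18 PI3K subunits and adaptors, 9 rose and 6 fell from pre-proB to proB (median log2 0.11), and 14 rose and 3 fell from proB to preB (median 0.44). Among the catalytic and regulatory subunits, Pik3cd, the p110δ subunit of leukocytes, fell by 0.63 on the log2 scale in proB (611 and 583 to 388 and 365 CPM, adjusted p = 4.18e-05), and Pik3r1, the main regulatory subunit, fell by 0.51 (adjusted p = 0.000101). Pik3cb, the p110β subunit, fell by 4.11 (adjusted p = 1.63e-07), from 38.0 and 46.1 CPM to 2.02 and 2.73 CPM. Pik3r5, a partner of p110γ, fell by 2.28 (adjusted p = 4.12e-08).

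Genes that rose from pre-proB to proB included Irs1, an insulin receptor adaptor (log2 4.06), Pik3c2b, a class II enzyme (3.72), and Gab1, an adaptor of PI3K (2.07). From proB to preB, Pik3c2b rose by 1.22, Irs1 by 1.15 and Irs2 by 0.98, and Pik3r1 and Pik3ap1, the adaptor BCAP, rose by 0.36 (adjusted p = 0.00161) and 0.51 (adjusted p = 0.00111). Pik3cd rose by 0.24 (adjusted p = 0.0144), a call lost without proB replicate 1 (adjusted p = 0.0518), proB replicate 2 (0.159) or preB replicate 2 (0.0993). Pik3r6 and Gab2 fell, by 2.96 and 0.71.

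Of 17 Akt and mTOR kinases and their partners, 4 rose and 3 fell from pre-proB to proB and 6 rose and 1 fell from proB to preB. Mtor, the kinase of both mTOR complexes, rose at each step, by 0.67 (adjusted p = 3.72e-05) and 0.58 (adjusted p = 0.000182). It measured 112 and 106 CPM at the pre-proB stage, 178 and 161 at proB and 262 and 244 at preB. Pdpk1, which phosphorylates Akt, fell by 0.87 at the earlier step (adjusted p = 3.96e-06), as did Rictor, the defining subunit of mTOR complex 2, by 0.79 (adjusted p = 1.34e-05). Rictor rose again by 0.72 from proB to preB (adjusted p = 6.43e-05), and Tsc1, an inhibitor of mTOR complex 1, rose by 0.37 (adjusted p = 0.00341). Sgk1 rose by 1.74 and Sgk3 fell by 1.74 at the earlier step, both kinases with substrates in common with Akt.

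Among other phosphatases and adaptors that limit the pathway, several were much lower in proB than in pre-proB cells. Of 18 tested, 9 fell and 4 rose from pre-proB to proB (median log2 -0.66), and 10 rose and 4 fell from proB to preB (median 0.29). Inpp4a, a PI(3,4)P2 phosphatase, fell from 316 and 327 to 12.5 and 15.6 CPM, Phlpp2, an Akt phosphatase, from 134 and 131 to 27.9 and 24.9 CPM, and Inpp4b from 12.3 and 11.5 to 1.91 and 1.90 CPM. Inppl1, which encodes SHIP-2, a relative of SHIP-1, had the order of Pik3ip1 over the stages. It measured 118 and 116 CPM at the pre-proB stage, 54.7 and 50.8 at proB and 85.8 and 71.9 at preB (log2 -1.11, adjusted p = 4.32e-06, then 0.59, adjusted p = 0.000525). Dok3, an adaptor that recruits SHIP-1, rose at both steps, by 3.39 and 1.25, and Phlpp1 rose by 0.89 at the earlier one (adjusted p = 6.72e-05).

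Of 23 tested genes reported as Foxo targets, 12 rose and 5 fell from pre-proB to proB (median 0.21), and 14 rose and 6 fell from proB to preB (median 0.34). Cdkn1a rose by 2.44 at the earlier step (adjusted p = 6.53e-07) and fell by 1.10 at the later one (adjusted p = 0.000117). Rag2 rose by 2.00 at the earlier step (adjusted p = 0.000167), with 0.31 at the later one (adjusted p = 0.293). Trib1 fell by 2.64 (adjusted p = 2.58e-08) and Gabarapl1, an autophagy gene, by 0.97 at the earlier step (adjusted p = 9.12e-05). From proB to preB Syk rose by 1.35 (adjusted p = 5.97e-06) and Tnfsf10 fell by 2.38 (adjusted p = 4.80e-05). Rag1 rose by 1.64 (adjusted p = 0.00135) and by 1.63 (adjusted p = 0.00204), reaching 1855 and 1917 CPM in preB cells. Both calls were lost with robust estimation (adjusted p = 0.0517 and 0.0606). Ccng2, an atypical cyclin, rose by 0.61 and 0.81, and Cdkn1b, the cell cycle inhibitor p27, rose by 1.00 from proB to preB (adjusted p = 1.66e-05), while its value at the earlier step was 0.10 (adjusted p = 0.246). Il7r, the IL-7 receptor, rose by 0.42 from proB to preB (adjusted p = 0.00246). Its difference at the earlier step (0.21, adjusted p = 0.0424) was lost without any 1 of the pre-proB and proB libraries (adjusted p = 0.0983 to 0.210), and with DESeq2's size factors, without a filter or with all 8 libraries in 1 fit (adjusted p = 0.0571 to 0.0771).

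Genes that fell and then rose included Txnip, an inhibitor of glucose uptake, which fell by 1.46 and rose by 1.50. Ccnd2, cyclin D2, went the opposite way, from 74.7 and 72.9 CPM in pre-proB to 261 and 264 at proB and 66.8 and 70.0 at preB. Genes known to be promoted by Klf2 did not share 1 direction. S1pr1, the exit receptor for sphingosine 1-phosphate, rose by 1.64 (adjusted p = 1.91e-05) and 1.63 (adjusted p = 2.24e-05), from 12.5 and 8.27 CPM in pre-proB to 90.7 and 103 at preB. Itgb7, an integrin chain on the same list, fell by 5.45 and 1.64.

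Of 11 tested Klf2 targets and Klf relatives, 2 rose and 8 fell from pre-proB to proB (median -1.10), and 7 rose and 2 fell from proB to preB (median 0.64). Klf6 fell by 1.32 at the earlier step and rose by 0.64 at the later one. Klf13 rose by 1.12 and Klf4 by 0.95 at the later step. Of 8 tested forkhead relatives, 3 rose and 1 fell at the earlier step, and 4 rose and 1 fell at the later one. Foxj2 fell by 2.23 and Foxm1, a proliferation factor, rose by 1.22 from pre-proB to proB, and Foxn3 rose by 0.82 and Foxp4 by 0.67 from proB to preB. All of these counts stand beside 36.2% of genes called higher and 36.8% called lower between proB and pre-proB, and 29.0% and 29.9% between preB and proB. Medians over all genes were 0.00 and -0.00. Both comparisons also stand beside the marker sums given above, and Rag1 is a B lineage marker as well.

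**Figure D5:**
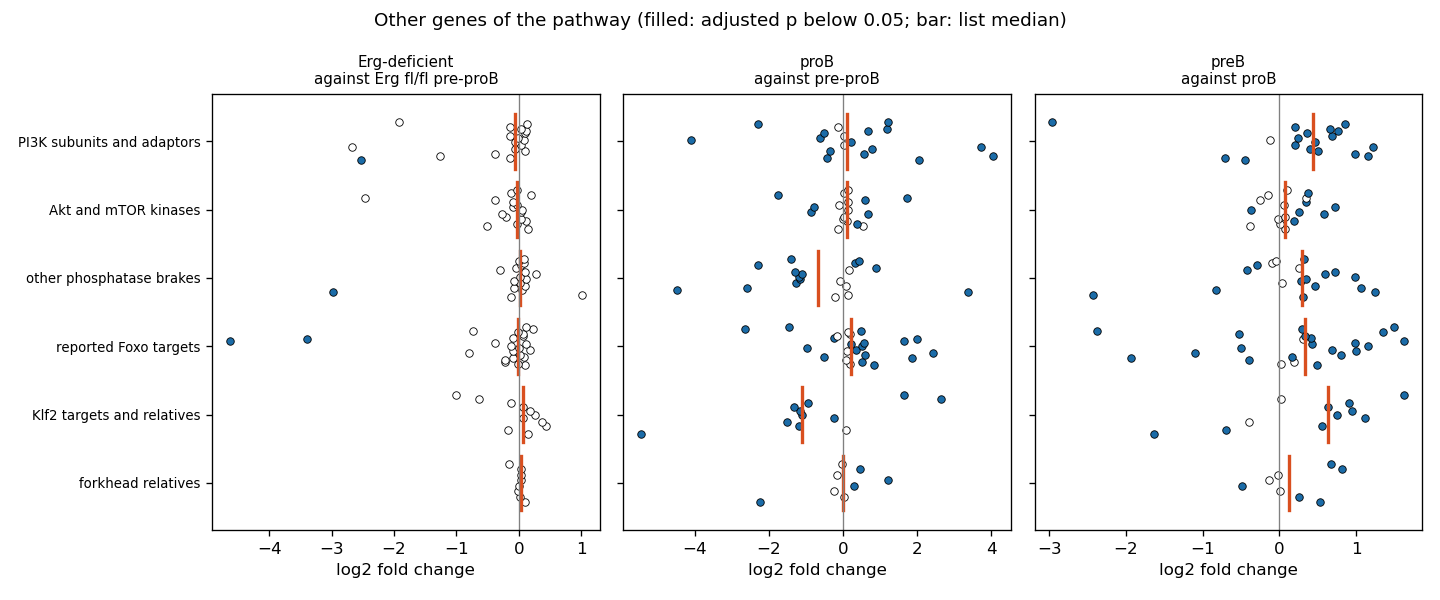
Log2 fold changes of single genes (points; filled, adjusted p below 0.05) and list medians (bars) for 6 lists in 3 comparisons. In the genotype comparison most points lie near 0, apart from genes such as Rag1 at -4.63 and Rag2 at -3.40.

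In Erg-deficient pre-proB cells 4 genes of these 6 lists were called, all lower: 1 of 18 PI3K subunits and adaptors, 1 of 18 phosphatases and 2 of 23 Foxo targets, where 0.946% of all genes were called lower. Of the 9 B lineage markers 7 were called lower in the same comparison, and their part in these differences was not tested. Rag1 fell from 283 and 120 to 8.00 and 8.46 CPM (log2 -4.63, adjusted p = 0.0178 by edgeR) and Rag2 from 43.6 and 18.8 to 3.25 and 2.71 CPM (-3.40, adjusted p = 0.0241). Dok3 fell from 38.6 and 18.4 to 3.56 and 3.75 CPM (-2.98, adjusted p = 0.0230), and Gab1 from 3.66 and 2.61 to 0.375 and 0.710 CPM (-2.53, adjusted p = 0.0488). Rag1, Rag2 and Dok3 were lower but missed the threshold without Erg-deficient replicate 1 (adjusted p = 0.155, 0.195 and 0.200) or replicate 2 (adjusted p = 0.151, 0.187 and 0.174). Gab1 missed it in 8 of 15 alternatives, among them without either of these (adjusted p = 0.247 and 0.165), without control replicate 1 (adjusted p = 0.0843) and with the replicate number as a block (adjusted p = 0.0689). The other Foxo targets, Il7r and Cdkn1b among them, were not called, with Il7r at 436 and 472 CPM against 414 and 416 in the controls.

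The genes whose levels ran most like a member's were found by the root-mean-square (RMS) difference of log2 CPM, each gene centred on its mean over the 8 libraries, among 13815 genes. For Foxo1 they were Cd1d1, an antigen-presenting molecule (RMS 0.07), Il12a (0.07) and Trp53inp1, a p53-induced gene (0.11), beside a median of 0.91 over all genes. Cd1d1 measured 50.4 and 39.0 CPM in Erg fl/fl pre-proB, 87.9 and 76.2 at proB, 152 and 143 at preB and 35.3 and 35.6 in Erg-deficient pre-proB. Control replicate 1 was above replicate 2 in Cd1d1, as it was in Foxo1, and these libraries entered the choice of Cd1d1.

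For Klf2 the nearest were Pim2, a survival kinase (0.13), Brwd1, a chromatin reader (0.18), and Iglv3, a light chain variable gene (0.19), beside a median of 0.92. Pim2 measured 53.4 and 54.7 CPM in pre-proB, 27.3 and 32.5 at proB, 109 and 133 at preB and 61.7 and 64.1 in Erg-deficient libraries. The nearest to Foxo3 were Rac2 (0.02), Rnpepl1 (0.03) and Nub1 (0.04), and to Pik3ip1 Slc38a6 (0.08), Zdhhc20 (0.09) and Pdcd4 (0.09). For Foxp1 they were Arel1 (0.05), Homer1 (0.08) and Adam10 (0.09), and for Akt1 Zbtb1 (0.05), Lipo3 (0.05) and Ppp2r2d (0.06). The 8 points behind each value are libraries of 4 groups that differ in the marker sums given above.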

How the data were processed

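RNA-seq libraries of 4 sorted populations, 2 replicates each, were grouped by their titles. What the authors deposited are raw counts, 1 whole number for each Entrez Gene identifier and library, not normalized. Per the labels and the study's methods, reads were called with CASAVA 1.8.2, trimmed with Trim Galore, aligned to mm10 with STAR and counted with featureCounts. The study's methods name the Entrez Gene annotation of Rsubread for the counting, while the overlapping gene models named above are from GENCODE. Whether those models were in the counting annotation was not looked at. Overlapping genes can share reads, and no source used here states the strand setting. Symbols came from RefSeq for 25275 identifiers and from GENCODE for 18, and the 1886 others hold 0.571% of counts.

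Here edgeR 4.0.16 in R 4.3.3 (TMM, legacy glmQLFit, glmQLFTest) was run on genes reaching 0.5 CPM in 2 or more libraries, separately for the 4 libraries labelled pre-proB and for the 6 of Erg fl/fl mice. P-values were adjusted by Benjamini-Hochberg over all genes kept, and genes were called below 0.05. Standard errors are the fold change over the square root of F. All members passed the filter in both fits. FPKM are CPM per kilobase of exon. Log2 CPM used a prior count of 2. The procedure was tested on simulated data. Intervals of fold changes are at 95%, and the limit of 3 counts covers counting error only.

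Some genes of the lists are not reported here and were left out of their counts, medians and sums. The members, lists and tests were chosen with earlier results of these data known. Named from the lists are up to 3 called genes per direction and comparison with the largest fold change and libraries that do not overlap, a set of pathway genes always shown, and the 3 genes nearest to each member whose group means span over 1 on the log2 scale. Alternatives were DESeq2's size factors or total counts, 3 other filters, DESeq2 1.42.0, limma-voom (limma 3.58.1), edgeR's version 4 method, robust estimation, all 8 libraries in 1 fit, blocking on the replicate number, and leaving out every library in turn. For pathway genes and exon lengths the alternatives were added after seeing the data. Figures were drawn with matplotlib 3.10.9.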

Additional observations from a re-analysis of the deposited data

How the results depend on the processing

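Of the 9 genes' fold changes, 565 values over all alternatives kept their direction and their side of the threshold, 9 lost a call, 10 gained a call and 10 changed sign. The cause was not tested. In the genotype comparison 0 members were called with edgeR, 2 with DESeq2 (Foxo1 and Klf2), and 0 to 1 when each library was left out, the 1 being Foxo1 without Erg fl/fl pre-proB replicate 2 (-0.63, adjusted p = 0.00508). All values that changed sign lay near 0. For Foxp1 in that comparison they were -0.01 with total counts, -0.05 without Erg fl/fl pre-proB replicate 2 and -0.00 without Erg-deficient replicate 1, and for Akt2 -0.04 without Erg-deficient replicate 2, with ranges over the left-out libraries of -0.05 to 0.09 for Foxp1 and -0.04 to 0.12 for Akt2. For Akt2 between proB and pre-proB they were -0.00 with DESeq2 size factors, without a filter, with DESeq2 and without proB replicate 2, -0.02 with all 8 libraries, and -0.08 without pre-proB replicate 1, the range over the left-out libraries being -0.08 to 0.03.

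The count of all genes called between genotypes, 151, was 279 without a filter, 400 with DESeq2, 41 with limma-voom, 88 with edgeR's version 4 method, 442 with all 8 libraries, 265 with the block, 401 without Erg fl/fl pre-proB replicate 2, and 16 and 10 without Erg-deficient replicate 1 and 2. Between proB and pre-proB 6 to 7 members were called over the alternatives, 7 to 9 between preB and proB and 6 to 9 between preB and pre-proB. Of 79 values of pathway genes, 12 lost their call in at least 1 alternative and none changed sign. Rag1, Rag2 and Dok3 missed the threshold between genotypes with limma-voom and with robust estimation, and Gab1 with limma-voom, edgeR's version 4 method, DESeq2's size factors, total counts and the block (adjusted p = 0.0536 to 0.112). Rag1 missed it at both stage steps with robust estimation.

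With the replicate number as a block 0, 7, 9 and 9 members were called, against 0, 7, 9 and 8, the difference being Inpp5d between preB and pre-proB (-0.16, adjusted p = 0.0376). Deviations of same-numbered libraries correlated at -0.02 between the genotypes and at 0.19, 0.05 and 0.11 between stages, so the numbers are taken as names only. Where 1 of 2 libraries is dropped, the spread of the one that is left is taken from the remaining groups.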

Other observations

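The remaining marker lists had these sums in the Erg fl/fl pre-proB, proB, preB and Erg-deficient pre-proB libraries. The 6 mature B markers summed to 112 and 126 CPM, 421 and 418, 895 and 955, and 86.9 and 82.3. The 7 T markers summed to 626 and 777 CPM, 34.5 and 41.6, 8.32 and 9.07, and 1432 and 786. Cd4 and Cd8a made up most of the T list, at 474 and 614 CPM and 112 and 121 CPM in the control pre-proB libraries, while Cd3e lay at 4.94 and 6.51 CPM there. The 4 plasma cell markers summed to 556 and 648 CPM, 308 and 309, 139 and 147, and 550 and 631. The 6 myeloid markers summed to 182 and 149 CPM, 130 and 337, 46.9 and 29.4, and 113 and 81.0, so the proB libraries differed from each other. Of the 6 erythroid markers 5 were in the table and summed to between 1.73 and 26.5 CPM in all libraries.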
